A study of Mus musculus with 5 samples.

Results

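Cytosolic ribosomal protein transcripts, split into those of the large (60S) and the small (40S) subunit, were examined in the livers of Pitx3 mutant mice. Members were all probes whose symbol in the platform's gene table begins with Rpl or Rps and a digit, or is Rpsa, Rplp0, Rplp1 or Rplp2, without the ribosomal S6 kinases and Rps19bp1. The rule used names and no measured value. It gave 93 probes of 61 genes, of 20355 probes in all, with 56 probes of 38 genes for 60S and 37 probes of 23 genes for 40S. One further probe carried Rpl12 together with a small nucleolar RNA and was left out.

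The samples were livers of 5 male mice, 17 weeks old, homozygous for the eyeless allele of Pitx3 (Pitx3eyl-/-), a homeodomain factor known from lens and midbrain dopamine neurons. Each 2-colour cDNA array held the RNA of 1 mutant beside the same kind of wild-type RNA pool, with the mutant in Cy5 on replicates 1, 2 and 4 and in Cy3 on replicates 3 and 5. The pool came from 4 mice per the sample labels and from 6 per the labelling protocol. No wild-type animal was hybridised singly, so the spread between wild-type mice is absent from every error below. A value is the deposited log2 ratio of the channels, read as mutant over pool. That direction is likely and not known: the labels list the mutant as channel 1, and the code values of the table are positive where Cy5 marked the mutant and negative where Cy3 did, the signs they would take had the swapped arrays been turned before deposit.

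The mammalian ribosome joins a small subunit, which binds the mRNA and decodes it, with a large subunit, which forms the peptide bond. Each ribosome holds 1 copy of nearly every ribosomal protein, and the mRNAs of these proteins are among the most abundant of the liver. Most of them start with a terminal oligopyrimidine (TOP) tract, a run of C and T bases at the first nucleotides through which mTOR signalling regulates their translation. A ratio array gives no absolute level, so the values below compare a probe with itself in mutant and pool, never 1 gene with another in abundance. In whole liver RNA, fewer cells of a type and less RNA per cell cannot be told apart.

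The start regions of some members whose values on single arrays follow are printed first, because a start tract is a feature that the choice by name did not use. They were picked to show starts with and without such a tract, so their mix says nothing of how common it is. They are RefSeq sequences of GRCm38.p6, each with 15 bases before and 15 bases from the annotated start on, the latter belonging to the first exon. Capitals mark a run of at least 5 C or T bases that covers the start.
Rpl35 (chr2:39005117-39005146, minus strand): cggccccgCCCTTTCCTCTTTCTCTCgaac
Rpl7a (chr2:26910792-26910821, plus strand): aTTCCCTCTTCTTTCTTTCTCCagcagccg
Rps9 (chr7:3704026-3704055, plus strand): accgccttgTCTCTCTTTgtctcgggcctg
Rps6 (chr4:86857353-86857382, minus strand): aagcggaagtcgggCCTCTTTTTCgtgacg
Rpl11 (chr4:136053379-136053408, minus strand): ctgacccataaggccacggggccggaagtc
Rpl24 (chr16:55966260-55966289, plus strand): agaaagctgttgctaggaaacagactgggc
Rpl4 (chr9:64173372-64173401, plus strand): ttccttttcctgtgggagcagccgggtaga
Rpl22l1 (chr3:28805493-28805522, plus strand): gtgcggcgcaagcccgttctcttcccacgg
Rps12 (chr10:23787195-23787224, minus strand): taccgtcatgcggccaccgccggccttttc
Rps15 (chr10:80292416-80292445, plus strand): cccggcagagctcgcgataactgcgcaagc
Rps28 (chr17:33824548-33824577, minus strand): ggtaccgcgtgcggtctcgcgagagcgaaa

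Such a run was present in 18 of 61 promoters of the 52 member genes in the RefSeq table (29.5%), against 10.1% of all 32851 promoters. It was found in 10 of 36 promoters for 60S and in 8 of 25 for 40S. Rpl7a had the longest run shown, with 21 bases, while Rpl11, Rpl24, Rpl4, Rpl22l1, Rps12, Rps15 and Rps28 had none at the annotated start. The letters CCGGAAG, a form of the site bound by ETS family factors, searched on both strands of the 300 bases around the start, were present in 24 of 61 member promoters (39.3%) and in 8.86% of all promoters. This motif was added after the data had been seen. TATAAA was present in 9.84% and 13.6%, respectively. A match describes letters in this window and is no binding site or start that was measured here.

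Ribosomal protein probes were measured more often than the array as a whole. A value on all 5 arrays was present for 47 of 93 member probes (50.5%) and for 31.3% of all probes. Of the others, 14 had values on 4 arrays, 20 on 3, 6 on 2 and 6 on 1. Missing values made up 15.1% of the member probes on replicate 1 and 26.9% on replicate 2, the arrays with the fewest and the most, where all probes had 21.9% and 32.1%. The number of arrays, 5, limits the precision of all values.

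No tested ribosomal protein probe was called different from the wild-type pool, which does not show that mutant and pool were equal. limma, fitted to 11300 probes with a dye term, called 0 of the 61 tested member probes and 0% of all tested probes at an adjusted p under 0.05. The lowest adjusted p among members was 0.999. At an unadjusted p under 0.05 there was 1 member probe, on the lower side, where the share over all tested probes was 4.16% (2.35% higher and 1.81% lower). Of the 56 probes for 60S, 36 had enough values for the test, and of the 37 for 40S, 25 had. The tested probes covered 45 of the 61 genes. The remaining 32 member probes had values on 3 arrays or fewer.

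The mutant coefficients, which weight both dye orientations equally, lay mostly a little below 0. They were below 0 for 28 of 36 tested 60S probes, with a median log2 ratio of -0.18, and for 18 of 25 tested 40S probes, with a median of -0.15. Over all tested probes the median was 0.04 and 46.1% lay below 0. Among the 47 members with 5 values, 40 lay below 0 (median -0.18). Among the 14 tested members with 4 values, 6 did (median 0.22). The median standard error of a member was 0.35. On the tested probes, 50 of 61 members had a coefficient within 0.5 of 0 (82.0%), against 65.0% of all tested probes. The members thus lay nearer to 0 than probes at large, but these shares are not matched for the number of arrays with a value.

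**Figure D1:**
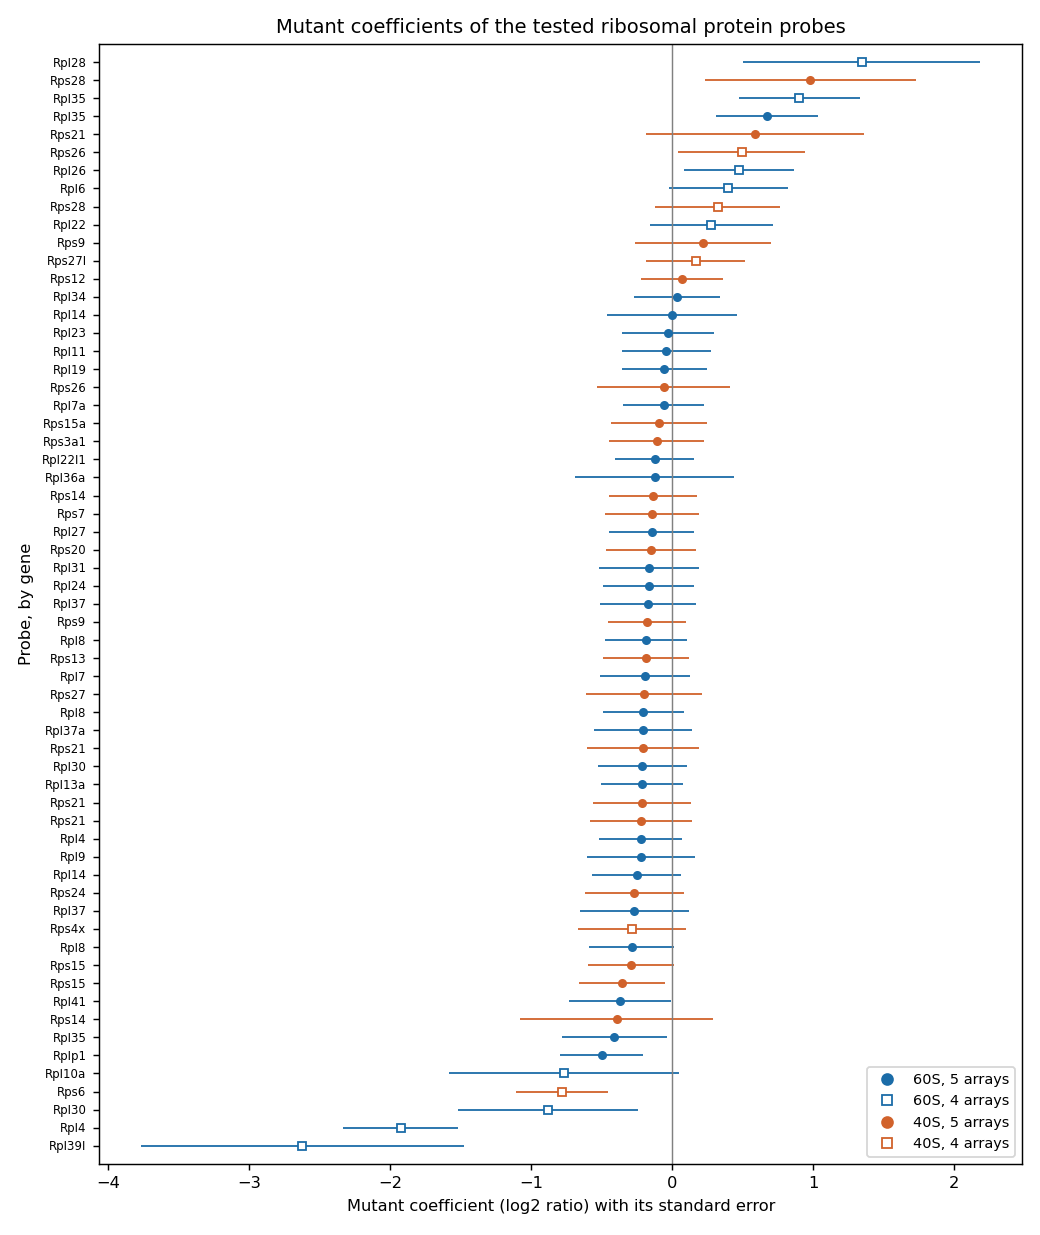
Mutant coefficient (log2 ratio, x axis) of each of the 61 tested ribosomal protein probes, ordered by value and named by gene on the y axis, with its limma standard error as a bar. Blue marks 60S and orange 40S, filled circles mark probes with 5 arrays and open squares probes with 4; most filled circles lie between -0.5 and 0, and the lowest and highest values belong to open squares.

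The shift below 0 depended on which arrays were fitted. Because both dye orientations weigh equally, leaving out replicate 3 or 5 makes the other stand alone for the Cy3 orientation. Those values therefore reflect the changed weights as well as the missing array. Of the 47 members with 5 values, 40 had a coefficient below 0. The number was 27 without replicate 2 and 23 without replicate 3, and it was between 42 and 43 when replicate 1, 4 or 5 was left out. Without replicate 2 the median was -0.03 for 60S and 0.01 for 40S, and without replicate 3 it was -0.03 and 0.01. Without replicate 5 the medians fell to -0.33 and -0.36, and without replicate 1 to -0.28 and -0.29. These counts with an array left out were added after the data had been seen.

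What the members shared was their course over the 5 animals. For replicates 1 to 5, the medians of the measured 60S probes were 0.21, -0.53, -0.48, -0.06 and 0.19. For 40S the medians were 0.15, -0.85, -0.56, -0.04 and 0.15 in the same order. Both subunits were thus high on replicates 1 and 5 and low on replicates 2 and 3, and each dye orientation held both a high and a low array. The medians of all probes on these arrays were -0.19, -0.04, -0.00, 0.11 and 0.23. Relative to them, 60S stood at 0.40, -0.49, -0.48, -0.17 and -0.04, and 40S at 0.34, -0.82, -0.56, -0.15 and -0.08. As deposited, replicate 1 was then the only array on which either subunit stood above the array. With the signs of the Cy3 arrays turned, replicates 3 and 5 would stand above as well. These offsets depend on the probes compared. All probes with 5 values had medians of 0.11, -0.004, -0.046, -0.089 and 0.104 on replicates 1 to 5. The 47 members with 5 values had 0.36, -0.73, -0.53, -0.085 and 0.153, thus above on replicates 1 and 5 and nearly level on replicate 4. Between arrays the SD of the 60S median was 0.35 (n = 5) and that of the 40S median 0.45 (n = 5), both larger than the mean shift of -0.13 and -0.23.

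**Figure D2:**
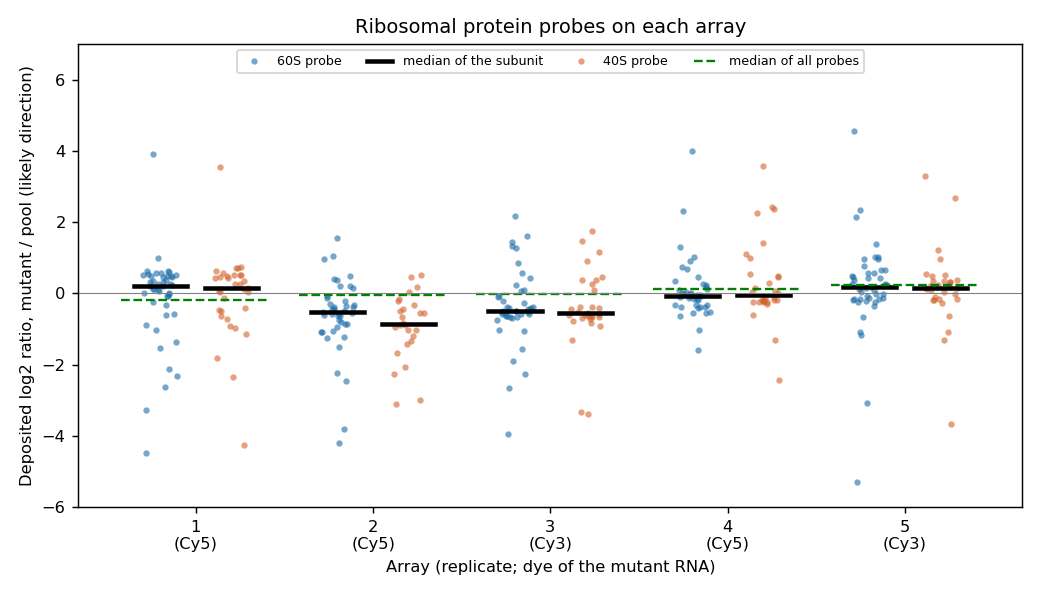
Deposited log2 ratio (y axis) of every measured ribosomal protein probe on each of the 5 arrays (x axis, with the dye of the mutant RNA), 60S in blue and 40S in orange. Black bars are the medians of the subunits and green dashed lines the median of all probes of the array; both black bars lie above the green line on replicate 1 and below it on replicates 2 and 3.

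The medians of the subunits were compared within each array. The 60S median minus the 40S median was 0.06, 0.33, 0.07, -0.02 and 0.04 for replicates 1 to 5, a mean of 0.10 ± 0.14 (SD, n = 5). A difference within an array is free of any constant that was added to the array. Only replicate 2 stood apart, and without it the mean was 0.04 ± 0.04 (SD, n = 4). On the 47 probes with 5 values the difference was 0.05, 0.31, 0.04, 0.08 and -0.03, again highest on replicate 2. With means in place of medians the mean difference was 0.01 ± 0.18 (SD, n = 5). With the probes of a gene averaged first it was 0.15 ± 0.11 (SD, n = 5). The mean difference was thus smaller than its SD over the animals by probe and larger than it by gene.

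The 47 probes with 5 values held together most closely. Their interquartile range was 0.46, 0.67, 0.25, 0.31 and 0.48 for replicates 1 to 5. All 6364 probes with 5 values had 0.83, 1.0, 0.86, 1.2 and 0.83. On replicate 3, 40 of the 47 lay below 0, and on replicate 2, 44 did, whereas 9 did on replicate 1. Of the 6364 probes, 3361 lay below 0 on replicate 3, 3192 on replicate 2 and 2719 on replicate 1. A value on replicate 1 above those on both replicate 2 and replicate 3 was seen for 41 of 47 members (87.2%) and for 40.7% of the 6364 probes. The mean distance of a probe from the median course of the members was under 0.25 for 27 of the 47 (57.4%) and for 4.35% of all probes with 5 values. These measures were chosen after the course had been seen, and the members themselves set the course, so the shares are a description. By subunit, 16 of 27 probes for 60S and 11 of 20 for 40S lay within that distance.

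**Figure D3:**
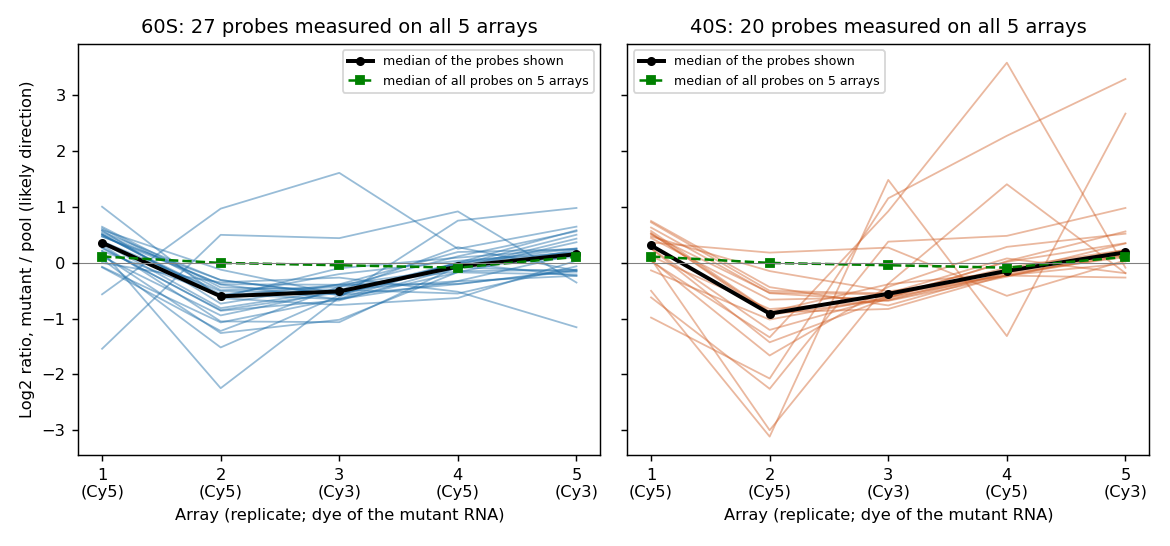
Log2 ratio (y axis) on each array (x axis) of the 27 probes for 60S (left) and the 20 for 40S (right) that were measured on all 5 arrays; thin lines link the values of 1 probe, and the arrays have no order. The black line is their median, which runs from above 0 on replicate 1 to below -0.5 on replicates 2 and 3 in both panels, and the green dashed line is the median of all probes with 5 values.

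Among the large subunit proteins, those nearest the common course were Rpl30 and Rpl24. Rpl24, which sits at the interface to the small subunit, had log2 ratios of 0.26, -0.85, -0.53, 0.00 and 0.25 on replicates 1 to 5. Its mutant coefficient was -0.17 ± 0.32 (SE, 5 arrays; limma adjusted p 0.999). It was high on replicates 1 and 5, near 0 on replicate 4 and lowest on replicate 2. Rpl11, which binds the 5S RNA and is known to restrain the p53 inhibitor MDM2 when ribosome assembly fails, had 0.50, -0.60, -0.40, -0.10 and 0.37. A second Rpl11 probe, not tested, departed from this on replicate 4, with 0.49, 3.99 and 0.13 on replicates 1, 4 and 5. Rpl5, the partner of Rpl11, had values on 3 arrays, at -2.63, -0.54 and -0.19 on replicates 1, 2 and 5, and was not tested. Rpl5 thus lay far below Rpl11 on replicate 1.

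Of the members with 5 values the one with the smallest range was Rpl7a, with 0.21, -0.59, -0.20, 0.03 and 0.18 on replicates 1 to 5. The mutant coefficient of Rpl7a was -0.06 ± 0.28 (SE, limma adjusted p 0.999). Rpl8, a protein near the peptidyl transferase centre, had 3 tested probes with nearly the same values. They lay between 0.38 and 0.50 on replicate 1 and between -0.65 and -0.08 on all others. All 3 were thus above 0 on replicate 1 alone. The coefficients of the 3 probes ran from -0.29 to -0.18. Rpl4, whose loop lines the exit tunnel for the nascent chain, followed with 0.52, -0.39, -0.66, -0.17 and -0.21.

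Rplp1, an acidic protein of the stalk that recruits elongation factors, was the only one of the 47 with 1 sign on all 5 arrays, where the share over all probes with 5 values was 5.99%. Its values were -0.00, -0.35, -0.27, -0.52 and -1.16, lowest where most members were above 0. Its coefficient was -0.50 ± 0.29 (SE, limma adjusted p 0.999). The value on replicate 1 lay at 0 within the rounding shown. The other stalk genes were measured less often: Rplp2 had 0.14, -1.57 and 2.32 on replicates 2, 3 and 4, and the probes of Rplp0 had 2 values each, between -2.65 and -0.33. They were not tested.

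The lowest and the highest coefficient among large subunit probes came from probes with a missing array, and the order of the coefficients holds for the direction as deposited. Rpl39l, the paralogue of the exit tunnel protein gene Rpl39, had the lowest coefficient, -2.62 ± 1.14 (SE, 4 arrays; limma adjusted p 0.999). Its values were -4.19, 0.57, -1.59 and -5.29 on replicates 2 to 5. The values on replicates 2 and 5 lay far below those on replicates 3 and 4, and with the signs of the Cy3 arrays turned the coefficient was -0.27. A second probe of Rpl4 had the lowest unadjusted p of all members, 0.00805, with -1.93 ± 0.41 (SE, limma adjusted p 0.999). It rested on replicate 3, which alone gave it a value with Cy3 on the mutant side, at -3.95, against -0.31, -0.06 and 0.68 on replicates 1, 2 and 4. The coefficient of this probe was 2.03 with the signs of the Cy3 arrays turned.

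Further low coefficients belonged to a second probe of Rpl30, to Rpl10a and to Rplp1. The Rpl30 probe stood at -0.88 ± 0.64 (SE), with -0.60, -3.79, 0.10 and 0.77 on replicates 1, 2, 3 and 5. Rpl10a, of the L1 stalk, stood at -0.77 ± 0.82 (SE), and its 4 values were -3.26, 0.22, -0.39 and -0.41 on replicates 1 to 4. In both of these probes 1 array lay more than 2 log2 units below the rest.

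On the higher side, Rpl28 had the largest coefficient, 1.34 ± 0.84 (SE, 4 arrays; limma adjusted p 0.999). Its values were -1.35, 0.86, 1.31 and 4.56 on replicates 1, 3, 4 and 5, and with the signs of the Cy3 arrays turned the coefficient was -1.37. Rpl35, a protein at the mouth of the exit tunnel, had 3 tested probes that did not share 1 course. One followed the other members with 0.14, -1.26, -1.02, -0.17 and 0.23 and a coefficient of -0.41 ± 0.37 (SE). The others had 0.67 ± 0.36 (SE, 5 arrays) and 0.90 ± 0.43 (SE, 4 arrays), with 0.97 and 1.57 on replicate 2, where the first probe was lowest. Rpl26 stood at 0.47 ± 0.39 (SE) and Rpl6 at 0.40 ± 0.42 (SE), the latter with a code in place of a ratio on replicate 2. The limma adjusted p was 0.999 for each of these probes.

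In the small subunit, Rps20 lay nearest the common course, with 0.44, -0.66, -0.61, -0.09 and 0.23 on replicates 1 to 5. Rps24 had 0.52, -0.89, -0.83, -0.22 and 0.15 and a coefficient of -0.27 ± 0.35 (SE). A second Rps24 probe, not tested, had -1.13, -1.01 and 0.33 on replicates 1, 2 and 5. Rps15, one of the tail-bearing proteins near the decoding site, had 2 probes that were alike. The first had 0.12, -0.83, -0.67, -0.18 and 0.10, the second -0.14, -1.02, -0.62, -0.23 and 0.13. Their coefficients were -0.29 ± 0.31 and -0.35 ± 0.31 (SE, limma adjusted p 0.999 for both).

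Rps6, the protein that S6 kinases phosphorylate downstream of mTOR, had the lowest coefficient of the small subunit in the direction as deposited. Its log2 ratios were -0.70, -0.92, -0.20 and -1.31 on replicates 1, 3, 4 and 5, all below 0. The coefficient was -0.78 ± 0.33 (SE, 4 arrays; limma adjusted p 0.999), and 0.33 with the signs of the Cy3 arrays turned. A second Rps6 probe went the other way on some arrays, with 0.42, -2.42 and 0.48 on replicates 1, 4 and 5, and was not tested. Rps4x, encoded on the X chromosome, stood at -0.29 ± 0.39 (SE). The laminin receptor precursor gene Rpsa had 1 value, 2.42 on replicate 4. No probe was named Rps27a (0 probes).

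The highest small subunit coefficient belonged to Rps28, a protein of the mRNA exit channel, at 0.98 ± 0.75 (SE). Its values were -0.98, -2.07, 1.15, 2.27 and 3.29 on replicates 1 to 5, and with the signs of the Cy3 arrays turned the coefficient was -1.24. The other Rps28 probe stood at 0.32 ± 0.44 (SE) on 4 arrays and carried a code on replicate 3. Rps26, also at the exit channel and known from Diamond-Blackfan anaemia, had 0.49 ± 0.45 and -0.06 ± 0.47 (SE) for its tested probes. Rps27l, a paralogue of Rps27 known as a p53 target, stood at 0.17 ± 0.35 (SE) with 0.70, 0.05, -0.40 and 0.31 on replicates 1, 2, 3 and 5. Rps12 was among those with the smallest range over 5 arrays, with 0.36, 0.18, 0.27, -0.59 and 0.04, and it was the only 40S probe with 5 values that stood above 0 on replicate 2. The limma adjusted p was 0.999 for each of these probes.

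Of the paralogue-like genes, Rpl22l1 also had 5 values, and Rpl7l1 and Rpl36al had too few for the test. Rpl22l1 had 0.58, -0.12, -0.57, -0.00 and -0.24, a mean distance of 0.27 from the median course, and a coefficient of -0.12 ± 0.28 (SE, limma adjusted p 0.999). Rpl22, whose product it can replace, had 0.64, -0.20, 0.07 and 1.03 on replicates 1 to 4 in its tested probe. Rpl7l1 had 0.23, 0.37 and -1.89 on replicates 1 to 3, and Rpl36al -0.12 and 1.01 on replicates 4 and 5. Without the paralogue-like members the mean difference between the subunits was 0.10 ± 0.14 (SD, n = 5).

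Probes of 1 gene showed how far a single probe stands for its transcript. Among members with 5 values there were 15 pairs of probes of the same gene, and their mean absolute difference over the arrays fell into separate ranges. It was 0.09 to 0.27 for 8 pairs, from Rps21, Rps15, Rpl8 and Rpl37, and 0.93 to 1.99 for 7 pairs. The pairs are not independent, as the same Rps21 probe, at 3.58 on replicate 4, enters several of these 7. The 1066 pairs of different member genes had a median of 0.38, against a median of 0.27 for the 15, and both ranges overlapped. Rps21 had 4 tested probes. On replicate 4, 3 of them had -0.12, 0.01 and 0.03, and the fourth had 3.58. Rps9, which affects decoding accuracy, had 0.47, -0.15, -0.51, -0.23 and -0.27 on 1 probe and -0.50, -3.11, 1.48, -1.31 and 2.67 on the other. For Rps14 the probes differed most on replicate 2, at -0.50 and -3.00, and for Rpl14 most on replicate 1, at 0.11 and -1.54.

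**Figure D4:**
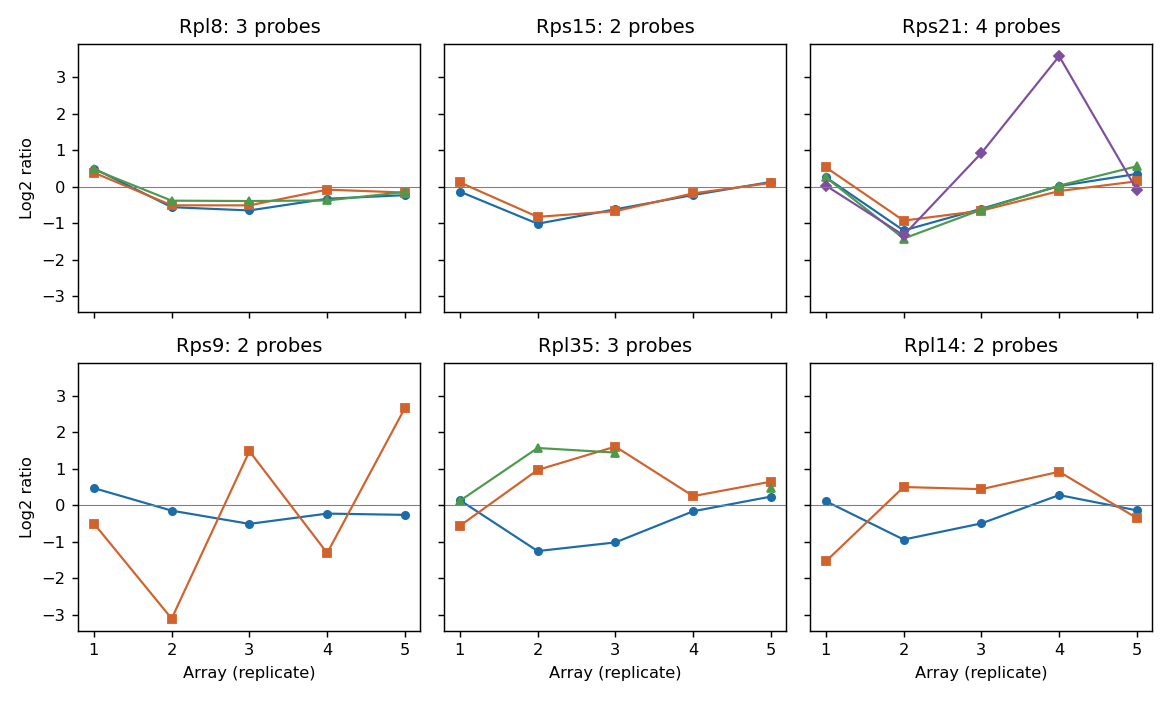
Log2 ratio (y axis) of the tested probes of 6 ribosomal protein genes on the 5 arrays (x axis), 1 line and marker per probe; lines link values of 1 probe. The probes of Rpl8 and Rps15 overlie each other, while Rps21 has 1 probe at 3.58 on replicate 4 and the probes of Rps9, Rpl35 and Rpl14 part.

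The second Rps9 probe also had the largest dye dependence in the small subunit. Its dye coefficient, which is how far the mean of the arrays with Cy5 on the mutant side lies above the mutant coefficient, was -1.86 ± 0.48 (SE, limma adjusted p 0.495). With the second Rpl4 probe it made 2 of 61 members with an unadjusted p under 0.05 for this coefficient, where the share over all tested probes was 7.38%, and 0 members were called. The median dye coefficient was -0.03 for 60S and -0.01 for 40S. The dye coefficient is the same number as the mutant coefficient with the signs of the Cy3 arrays turned, so these are not separate results. By the deposited medians, high and low arrays of the common course occurred in both orientations. Relative to the median of all probes of the array, only replicate 1, with the mutant in Cy5, stood above, and the Cy3 arrays stood below. Beside all probes with 5 values, the 47 members with 5 values also stood above on replicate 5, a Cy3 array, at 0.153 against 0.104.

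Members with fewer arrays were more scattered. The median SD of a probe over the arrays was 0.53 for the 47 members with 5 values and 1.23 for the 40 with 2 to 4 values. For all probes the medians were 0.71 and 1.47. Many values of the table lie within 0.0015 of an array's constant plus the log2 of a ratio of whole numbers up to 20. Such values made up 20.4% of the values of members with 5 arrays and 38.3% of those with 2 to 4, against 29.7% of all values. Such ratios lie close together, and the share of values that would fall near any of them by coincidence was not computed. How far the form of the values bears on the scatter was not tested. With these values left out, 34 member probes could be fitted, and the medians were -0.16 for 60S and -0.16 for 40S.

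The order of the members was partly reversed between some arrays. Across the 47 probes, values on replicate 2 and replicate 5 had a Pearson r of -0.58 and a Spearman rho of -0.60, where all 6364 probes had -0.07 and -0.03. The sign of this relation turns if the Cy3 arrays are turned. The 5 lowest probes on replicate 2 were the second probes of Rps9 and Rps14, then Rps26, Rpl36a and Rps28. They stood at -3.11, -3.00, -2.26, -2.24 and -2.07 there, and at 2.67, -0.19, 0.98, 0.98 and 3.29 on replicate 5. The 5 highest on replicate 2 were probes of Rpl35, Rpl14, Rps12, Rpl22l1 and Rps9. They stood at 0.97, 0.50, 0.18, -0.12 and -0.15 there, and at 0.64, -0.35, 0.04, -0.24 and -0.27 on replicate 5. Rps14 and Rpl35 thus departed from the reversed order. By subunit rho was -0.59 for the 27 probes of 60S and -0.55 for the 20 of 40S. Replicates 1 and 3 had a Pearson r of -0.66 but a rho of -0.39, and 4 and 5 had 0.18 and 0.32. The highest rho was 0.47, for replicates 1 and 2, which carried the same dye (Pearson r 0.23). Probes share the array and the pool and are not independent, several belong to the same gene, and the arrays carried opposite dyes, so these are descriptions.

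**Figure D5:**
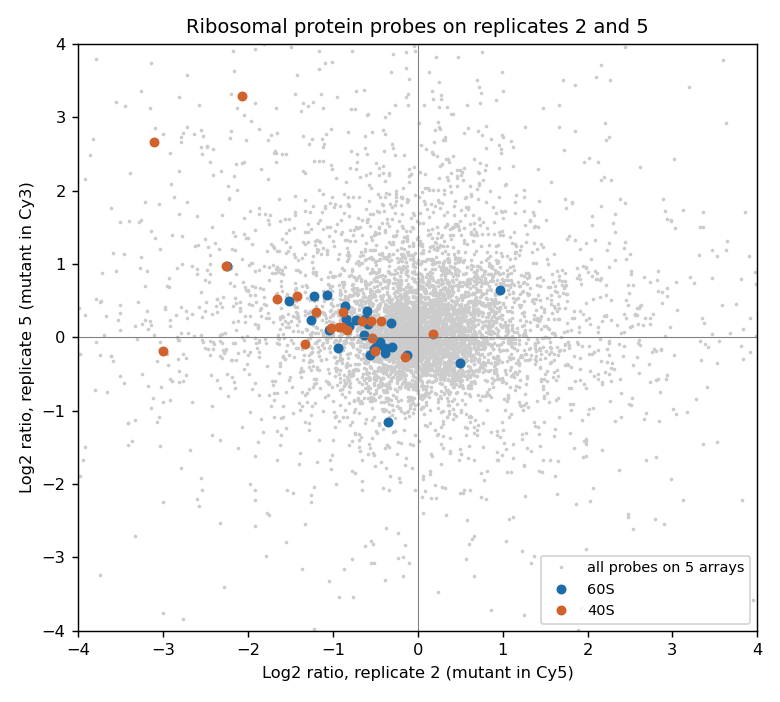
Log2 ratio on replicate 2 (x axis, mutant in Cy5) against replicate 5 (y axis, mutant in Cy3) for the 47 ribosomal protein probes with 5 values, 60S in blue and 40S in orange, over all 6364 probes with 5 values in grey (196 lie outside the axes). Members lie mostly left of 0 and tend from upper left to lower right, with exceptions such as Rps14 at -3.00 and -0.19, while the grey cloud has a Pearson r of -0.07.

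Other genes of ribosome production, taken from lists written with earlier results of these data known, were tested by gene, with the probes of a gene averaged. limma called 0 of them and 0% of all 6706 genes; at an unadjusted p under 0.05 the share over all genes was 3.94%. Of 11 tested genes for other TOP mRNAs, 6 lay below 0, with a median of -0.02. Tpt1, which encodes translationally controlled tumour protein, had 0.58, -0.41, -0.52, -0.24 and -0.13 on replicates 1 to 5, a mean distance of 0.20 from the course of the ribosomal proteins. It was the only one of the 9 such genes with 5 values that lay within 0.25 of it. Within 0.5 lay 5 of 9, where 30.5% of all single probes with 5 values did. A gene at 0 on every array would lie within 0.5 too, so this limit does not show a shared course. The lowest gene of the list was Eef1b2 at -0.48 ± 0.36 (SE) and the highest Eef2, the translocation factor, at 0.86 ± 0.38 (SE).

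Ribosome biogenesis factors showed no common side. Of 26 tested genes 13 lay above and 13 below 0 (median -0.01), and 3 had an unadjusted p under 0.05. They ran from Rrp9, of the U3 particle, at -2.04 ± 0.52 (SE, limma adjusted p 0.998) to the assembly ATPase gene Nvl at 1.28 ± 0.49 (SE, limma adjusted p 0.998). Within 0.25 of the ribosomal protein course lay 1 of 16 with 5 values, the rRNA methyltransferase gene Ftsj3, with 0.35, -1.0, -0.62, -0.13 and 0.03. For RNA polymerase I, 2 of 4 tested genes lay below 0, from Taf1c at -0.51 ± 0.38 to Znrd1 at 1.05 ± 0.64 (SE). Of the S6 kinase and TOP control list, 3 of 10 lay below 0 (median 0.21). Its genes ran from Rps19bp1 at -3.27 ± 0.67 (SE, limma adjusted p 0.998) to Pdpk1, the kinase PDK1, at 0.45 ± 0.39 (SE). Rps19bp1 is no S6 kinase, and the list also counted Pdk1, a gene other than Pdpk1. Ribosome-bound chaperones and quality control had 5 of 11 below 0 (median 0.20), from Zfp598 at -0.15 ± 0.38 to Btf3 at 1.38 ± 0.60 (SE). That list also counted Nars, a tRNA synthetase gene.

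Markers of cell types were set beside these values. The hepatocyte list had 11 of 15 genes on the array, and its medians were 0.23, -0.31, -0.18, 0.12 and 0.11 on replicates 1 to 5, the same order of high and low arrays as for 60S but for replicates 4 and 5. Of its 6 genes with 5 values, 5 lay within 0.5 of the ribosomal protein course, beside 30.5% of all single probes with 5 values. A gene at 0 on every array would also pass this limit, so passing it does not show a shared course. Alb passed it at -0.19, -0.34, -0.14, 0.08 and -0.08, below 0 on replicate 1, where the ribosomal protein median was above 0. Serpina1b lay within 0.25. The sixth, Apoa1, was at a distance of 2.24. Of all 6706 genes tested, 3601 lay above 0. For bile duct markers 3 of 3 tested genes did (median 0.64), for erythroid markers 4 of 4 (median 0.53) and for lymphocyte markers 6 of 6 (median 0.39), the latter 2 lists with array medians from 0.14 to 0.69 and from 0.08 to 0.92. Neither of these 2 lists had an array median below 0, but on replicate 5 the erythroid median of 0.14 lay below the 0.23 of all probes. The tested genes were 4 of 12 listed for erythroid cells and 6 of 14 for lymphocytes. The bile duct medians split by dye orientation. They were -1.03, -1.02 and -0.19 on replicates 1, 2 and 4 (mutant in Cy5) and 1.32 and 0.90 on replicates 3 and 5 (mutant in Cy3). Kupffer cell and macrophage markers had array medians from -0.73 to 1.15, stellate cell markers from -0.65 to 1.04, endothelial markers from -0.71 to 0.36 and bile duct markers from -1.03 to 1.32, each on 2 to 6 genes an array. Their part in the ribosomal protein values was not tested, and ratios allow no check of the labelled tissue by marker level.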

How the data were processed

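The authors deposited 1 value table of log2 ratios of the 2 channels for 5 arrays; that the unit is log2 was read from the values. Per the labels' protocols, RNA was isolated on columns and 20 µg were labelled indirectly; for background correction and normalization, the method is not given in the sources used here. No value column was left unused (0). Values over 12 in absolute size (788, of which 2 on member probes) were read as codes and set to missing. Names came from the platform's table (14030 probes with 1 symbol, 5 with several, 6320 unnamed here); RefSeq's GRCm38.p6 table held 92 of 93 member probes and changed 0 symbols. Replicates are separate animals per the labels.

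Probes measured on 4 or more arrays, with each dye orientation present, were fitted with limma 3.58.1 (R 4.3.3), lmFit and eBayes, with an intercept, tested against 0, and a dye term. Adjusted p-values are Benjamini-Hochberg over all tested probes, with a threshold of 0.05. The pool is 1 control sample. The fit was tested on simulated data. Members, lists and measures were chosen with earlier results of these data known. No set test was run. Named probes are the 5 highest and 5 lowest of each subunit, the 5 with the smallest range, probes of genes with several tested probes, paralogue-like genes, and Rps6, Rpsa, Rplp0, Rplp1, Rplp2 and Rps27a, with the extremes of each list; Rpl5, Rpl11, Rpl24, Rpl36a, Rps20, Tpt1, Ftsj3, Alb, Serpina1b, Apoa1 and further members were added after their values had been seen. The alternatives were dye term, centring, codes, filters, turned signs, small-ratio values, averaging by gene, array weights, robust eBayes and each array left out.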

Additional observations from a re-analysis of the deposited data

Results flagged for a closer look

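The difference between the 60S and 40S medians stood apart on replicate 2, where it was 0.33 against -0.02 to 0.07 on the other 4 arrays; the gap was 0.722 of the whole range, above Dixon's limit of 0.710 for 5 values. The medians behind it were -0.53 and -0.85, both low.

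An Rpl8 probe stood apart on replicate 1, at 0.47 against -0.40 to -0.15 on the others, with a gap of 0.714 of the range. The other Rpl8 probes had 0.38 and 0.50 there and were under the limit. Of the 64 sets of values tested in this way chance flags about 1 in 20.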

How the results depend on the processing

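limma called 0 probes and 0 member probes under each alternative run and with each array left out; at an unadjusted p under 0.05 it had 470 of 11300 probes and 1 of 61 members. The 60S median coefficient ranged from -0.22 to -0.03 and the 40S median from -0.20 to -0.01 over the alternatives that kept all arrays; with 1 array left out they ranged from -0.33 to -0.03 and from -0.36 to 0.01, over 39 to 43 and 26 to 30 probes. The mean 60S minus 40S difference ranged from 0.01 to 0.15 (0.15 ± 0.11, SD, by gene), and from 0.04 to 0.12 with 1 array left out. Of the 47 members with 5 values, 40 lay below 0; the number was 24 with the signs of the Cy3 arrays turned, and 23 to 43 with 1 array left out (added after seeing the data). Of the 40 named probes, 7 kept their sign under every alternative that could be fitted for them, and turned signs changed 24 of them. Keeping codes moved Rpl6 to 3.22 and Rps28 to -3.96. The cause was not tested. The form of the values, 5 arrays and 1 pool limit what can be detected, and no signal over background is known. No paired analysis was possible because there is 1 group.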
